A study of Homo sapiens with 12 samples.

Results

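The genes described here encode gut and endocrine peptides, their relatives and helpers: GCG, NTS, REG4, RFX6, TTR, TFF1, TFF3 and PAM. They were followed in LNCaP cells, an androgen-sensitive line from a human prostate adenocarcinoma, through every probe set that the platform table assigns to 1 of these symbols. That gave 12 probe sets for the 8 genes, of 54675 on the array, and 7 of the 8 were among the 10265 genes tested. Signals are log2 GCRMA values, on which a step of 1 is a 2-fold difference, and a mean under 4 lies near the background of this array. The 8 genes were picked with their signals in the 4 groups and the effects of the siRNA and of R1881 on them known. Their levels and differences are therefore a description, given without p-values.

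All 4 groups were LNCaP cells held under androgen deprivation for 48 h and transfected with siRNA. The control vehicle group received control siRNA and ethanol, and the control R1881 group received control siRNA and 5 nM R1881, a synthetic androgen. The silenced vehicle and silenced R1881 groups received siRNA against SRF, with the same treatments. SRF (serum response factor) drives genes of the actin cytoskeleton and of the early growth response. Treatment began 42 h after transfection and lasted 48 h. Each group held 3 arrays, called biological replicates in the labels without mention of separate cultures, so any spread given here is that between these arrays. The comparisons ask which of these genes differed with the androgen, with the SRF siRNA or with both.

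GCG encodes proglucagon, which prohormone convertases cut into glucagon in the pancreatic islet and into glucagon-like peptides in the enteroendocrine cells of the gut. NTS encodes the precursor of neurotensin, a gut and brain peptide that can act as a growth factor for prostate cancer cells. PAM encodes the enzyme that gives many peptide hormones their C-terminal amide, and RFX6 encodes a transcription factor needed for islet and enteroendocrine cells. TFF1 and TFF3 encode trefoil peptides secreted with mucus, REG4 encodes a secreted lectin of the regenerating family found in enteroendocrine cells and in gastrointestinal tumours, and TTR encodes transthyretin, a carrier of thyroid hormone and retinol-binding protein.

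SRF was measured first, as the target of the siRNA. Its mean was 6.07 ± 0.14 (SD, n = 3) in control vehicle and 4.74 ± 0.28 in silenced vehicle, and 6.30 ± 0.18 and 4.87 ± 0.13 in the R1881 groups (limma adjusted p = 7.98e-06 and 3.31e-06). A second SRF probe set stayed between 2.56 and 2.87 on all arrays. KLK3, which encodes prostate-specific antigen, was higher with R1881 under both siRNAs, by 3.26 ± 0.06 (SE) with the control and 3.54 ± 0.06 with the SRF siRNA (adjusted p = 1.82e-12 and 1.60e-12). All 7 prostate luminal markers with a probe set had means above 4 in every group. None of the 5 gut epithelium markers (CDX2, VIL1, LGR5, FABP1 and ALPI), of the 3 endocrine markers measured (CHGA, SYP and INSM1) or of the 3 liver markers reached 4 in any group. Their summed means ran from 12.2 to 12.3, 8.80 to 8.87 and 9.15 to 9.24 across the groups. None of the basal and leukocyte markers measured reached 4 either, while the fibroblast collagen genes COL1A1 and COL3A1 did, the second in all groups but control R1881. COL1A2, DCN and LUM, also fibroblast markers, stayed under 4 in every group. The summed means of the 5 fibroblast markers were 20.7 in control vehicle, 17.7 in control R1881, 22.3 in silenced vehicle and 18.5 in silenced R1881. The highest mean of a single marker among them was 6.45, 6.02, 7.915 and 5.69 in the same order. The sum was thus highest in the group where GCG, NTS and REG4 peak, mostly through 1 gene, and the part of these markers in the results was not tested. RNA integrity was read from GAPDH and ACTB, as the signal of the 3-prime probe set minus that of the 5-prime one. For GAPDH it was 0.07 to 0.24 in control vehicle, 0.45 to 0.49 in control R1881, 0.32 to 0.39 in silenced vehicle and 0.37 to 0.64 in silenced R1881. For ACTB, which is itself a known SRF target, it was 1.26 to 1.49, 1.48 to 1.52, 1.57 to 1.84 and 1.58 to 2.21 in the same order. The control vehicle arrays thus lay below all others for GAPDH, and every silenced array lay above every control array for ACTB. The GAPDH sign thus moved with R1881 in control cells and with silencing in vehicle, and the ACTB sign with silencing under both treatments. Genes among the 8 differ in each of these comparisons, and the part of RNA integrity in the differences below was not tested. In RNA from whole cultures, a change in the number of cells that express a gene and a change per cell cannot be told apart.

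The peptide precursors GCG and NTS were high in 1 group only, the silenced cells without androgen. GCG (probe set 206422_at) stood at 4.71, 3.28 and 3.83 in control vehicle and at 8.47, 8.60 and 8.99 in silenced vehicle. With R1881 it was 2.33, 2.18 and 2.39 in control cells and 2.44, 2.40 and 2.19 in silenced cells. The control vehicle mean of 3.94 and both R1881 means lay under 4, and the silenced vehicle arrays were well above every other array. The difference between the siRNAs was 4.74 ± 0.27 (SE) in vehicle, the largest rise of the 10265 genes tested, and 0.04 ± 0.27 in R1881 (95% interval -0.55 to 0.63). The R1881 difference was -6.34 ± 0.27 in silenced cells, the largest fall of all genes tested, and -1.64 ± 0.27 in control cells. With values under 4 set to 4, these R1881 differences were -4.69 and -0.24. The spread of GCG was widest in control vehicle, where the arrays spanned 1.43.

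NTS followed the same pattern with less spread. Its control vehicle arrays (206291_at) read 5.15, 5.18 and 4.38, and the silenced vehicle arrays 8.77, 8.76 and 8.82. With R1881 all 6 arrays lay between 2.46 and 2.61, whichever siRNA was given. Only the 2 R1881 means were under 4. The vehicle groups overlapped neither with each other nor with the R1881 groups. Silencing went with a difference of 3.88 ± 0.17 (SE) in vehicle and of -0.02 ± 0.17 in R1881 (95% interval -0.38 to 0.34). The R1881 difference was -6.26 ± 0.17 in silenced cells, second to that of GCG among all genes tested, and -2.36 ± 0.17 in control cells. With values under 4 set to 4 they were -4.78 and -0.91.

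REG4 shared the peak in silenced vehicle. Its brighter probe set, 223447_at, read 3.67, 3.72 and 3.75 in control vehicle, 2.99, 2.95 and 3.09 in control R1881, 7.63, 8.05 and 7.76 in silenced vehicle and 4.34, 3.88 and 3.89 in silenced R1881. Both control means were under 4 and the silenced R1881 mean, at 4.04, was just over it. Silencing in vehicle went with a difference of 4.10 ± 0.13 (SE), the second largest rise of all genes tested after GCG. Unlike GCG and NTS, REG4 remained higher in silenced than in control cells in R1881, by 1.03 ± 0.13, which came to 0.11 with values under 4 set to 4. The R1881 difference was -3.78 ± 0.13 in silenced cells and -0.70 ± 0.13 in control cells, the latter wholly under 4. The probe set 1554436_a_at gave 3.88 ± 0.20 for silencing in vehicle and -3.45 ± 0.20 for R1881 in silenced cells. It gave less for the smaller differences, 0.61 ± 0.20 for silencing in R1881 and -0.18 ± 0.20 for R1881 in control cells. The third, 238984_at, stayed between 2.63 and 2.85 on all 12 arrays.

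RefSeq promoters, 250 bases before to 50 after a gene's start on GRCh38.p14, were at hand for 4 of the 8 genes, and those of the 3 genes that peaked together in silenced vehicle are shown. GCG lies at chr2:162152198-162152497 on the minus strand, NTS at chr12:85874045-85874344 on the plus strand and REG4 at chr1:119811411-119811710 on the minus strand. Each sequence runs 5′ to 3′ along its gene, and capitals mark the matches to 7 motifs searched on both strands.
GCG: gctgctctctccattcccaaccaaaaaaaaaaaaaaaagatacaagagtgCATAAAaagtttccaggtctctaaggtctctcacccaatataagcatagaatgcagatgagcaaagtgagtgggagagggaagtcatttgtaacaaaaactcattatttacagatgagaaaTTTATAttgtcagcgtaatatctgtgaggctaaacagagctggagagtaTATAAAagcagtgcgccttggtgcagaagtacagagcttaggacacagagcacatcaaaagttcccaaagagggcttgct
NTS: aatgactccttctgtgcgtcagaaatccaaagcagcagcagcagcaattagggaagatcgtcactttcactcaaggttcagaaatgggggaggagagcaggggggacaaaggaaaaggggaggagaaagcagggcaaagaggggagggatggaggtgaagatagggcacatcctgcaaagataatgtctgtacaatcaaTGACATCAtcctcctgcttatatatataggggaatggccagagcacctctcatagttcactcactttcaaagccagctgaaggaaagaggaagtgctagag
REG4: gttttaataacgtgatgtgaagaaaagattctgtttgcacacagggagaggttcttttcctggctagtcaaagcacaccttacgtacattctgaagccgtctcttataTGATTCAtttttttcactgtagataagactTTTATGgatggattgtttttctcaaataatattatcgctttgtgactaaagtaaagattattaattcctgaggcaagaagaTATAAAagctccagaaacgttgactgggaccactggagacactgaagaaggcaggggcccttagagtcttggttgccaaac
The motifs were the TATA box (TATAAA), the AP-1 site (TGANTCA), the CRE-type site (TGACNTCA), the androgen response half-site (AGAACA), the forkhead site (TGTTTAC), the CDX site (TTTATG) and the CArG box, the sequence that SRF binds. They were chosen after these promoters had been seen. GCG and REG4 both had a TATA box, at -30 to -25 and -31 to -26 from the start, and both had a CDX match, at -200 to -195 and -112 to -107. GCG had a further TATAAA on the other strand at -79 to -74. NTS had a CRE-type site at -51 to -44 and no exact TATAAA, though a tatatata run that the search did not cover follows that site. REG4 had an AP-1 match at -142 to -136. None of the 3 windows held a CArG box or an androgen response half-site. Over the 35116 promoters of the same length, 11.5% held TATAAA, 10.6% a CDX match, 7.72% a CRE-type site, 7.71% an AP-1 match, 14.8% the half-site, 3.42% the forkhead site and 1.29% a CArG box. Of the 3 PAM promoters 1 held an androgen response half-site. A match or its lack describes these letters and says nothing of binding.

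The trefoil gene TFF1 also peaked in silenced cells, but with R1881 rather than without it. It (205009_at) read 5.43, 5.36 and 4.34 in control vehicle, 4.21, 4.59 and 4.17 in control R1881, 7.65, 7.76 and 7.61 in silenced vehicle and 9.66, 9.39 and 9.93 in silenced R1881. No group mean lay under 4. All silenced arrays were above all control arrays, whereas the control groups overlapped. Silencing went with a difference of 2.63 ± 0.24 (SE) in vehicle and of 5.34 ± 0.24 in R1881, the second largest rise of all genes tested there. Between R1881 and vehicle the difference was 1.98 ± 0.24 in silenced cells and -0.72 ± 0.24 in control cells, opposite in sign. The latter moved to -0.53 without the first control vehicle array and to -1.07 without the third.

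TFF3 (204623_at) stayed under 4 in every group, with means of 3.44 ± 0.27 in control vehicle, 3.21 ± 0.14 in control R1881, 3.57 ± 0.25 in silenced vehicle and 3.29 ± 0.03 in silenced R1881 (SD, n = 3 each). It was above 4 on 0 of the 12 arrays and was not among the genes tested. Its arrays ran from 3.05 to 3.79 and overlapped in all 4 comparisons of groups, so no difference was detectable at this signal level.

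RFX6 was higher with either factor and highest with both. It (1552673_at) read 2.04, 2.52 and 2.71 in control vehicle, the only mean under 4, and 5.28, 5.44 and 5.30 in control R1881. Silenced cells read 5.39, 5.79 and 5.44 in vehicle and 8.12, 8.16 and 8.43 in R1881. The 2 middle groups overlapped with each other and with neither of the others. The R1881 difference was 2.92 ± 0.16 (SE) in control and 2.69 ± 0.16 in silenced cells, and silencing went with 3.12 ± 0.16 in vehicle and 2.89 ± 0.16 in R1881. The difference of the R1881 effects was -0.23 ± 0.23 (95% interval -0.72 to 0.27). With values under 4 set to 4, which changes only the control vehicle level, the R1881 difference in control cells was 1.34 and that of silencing in vehicle 1.54. The difference of effects was then 1.35, opposite in sign to the value without the floor.

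TTR was low in silenced vehicle alone, the mirror of GCG and NTS. It (209660_at) read 6.35, 6.05 and 5.98 in control vehicle, 5.72, 5.83 and 5.74 in control R1881, 2.88, 2.60 and 2.62 in silenced vehicle and 5.56, 5.16 and 5.63 in silenced R1881. Only the silenced vehicle mean, 2.70, was under 4. Silencing went with -3.43 ± 0.13 (SE) in vehicle, the third largest fall of all genes tested, and with -0.32 ± 0.13 in R1881. With R1881 the difference was 2.75 ± 0.13 in silenced cells and -0.36 ± 0.13 in control cells. With values under 4 set to 4, silencing in vehicle gave -2.13 and R1881 in silenced cells 1.45.

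PAM was lower in silenced cells under both treatments, and lower with R1881 in control cells. Its brightest probe set, 202336_s_at, read 7.06, 6.61 and 6.54 in control vehicle, 4.89, 5.58 and 5.42 in control R1881, 3.86, 3.81 and 4.0 in silenced vehicle and 3.57, 3.71 and 3.16 in silenced R1881. The groups did not overlap, and both silenced means were under 4. Silencing went with -2.85 ± 0.19 (SE) in vehicle, ninth among the falls of all genes tested, and -1.82 ± 0.19 in R1881. The R1881 difference was -1.44 ± 0.19 in control cells and -0.41 ± 0.19 in silenced cells, and the latter was 0 with values under 4 set to 4. It was -0.25 without the third silenced R1881 array and -0.19 without the third array of both silenced groups. A second probe set, 212958_x_at, gave -2.41 ± 0.28 and -1.88 ± 0.28 for silencing. Its R1881 differences were -0.87 ± 0.28 in control and -0.35 ± 0.28 in silenced cells, with overlapping groups in both, and their difference was 0.52 ± 0.39, beside 1.03 ± 0.27 for 202336_s_at. The third, 214620_x_at, was above 4 on only 2 arrays and had a mean of 4.16 in control vehicle and of 2.75 to 3.00 in the other groups. The suffix of the last 2 marks probes that can also match other transcripts.

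**Figure D1:**
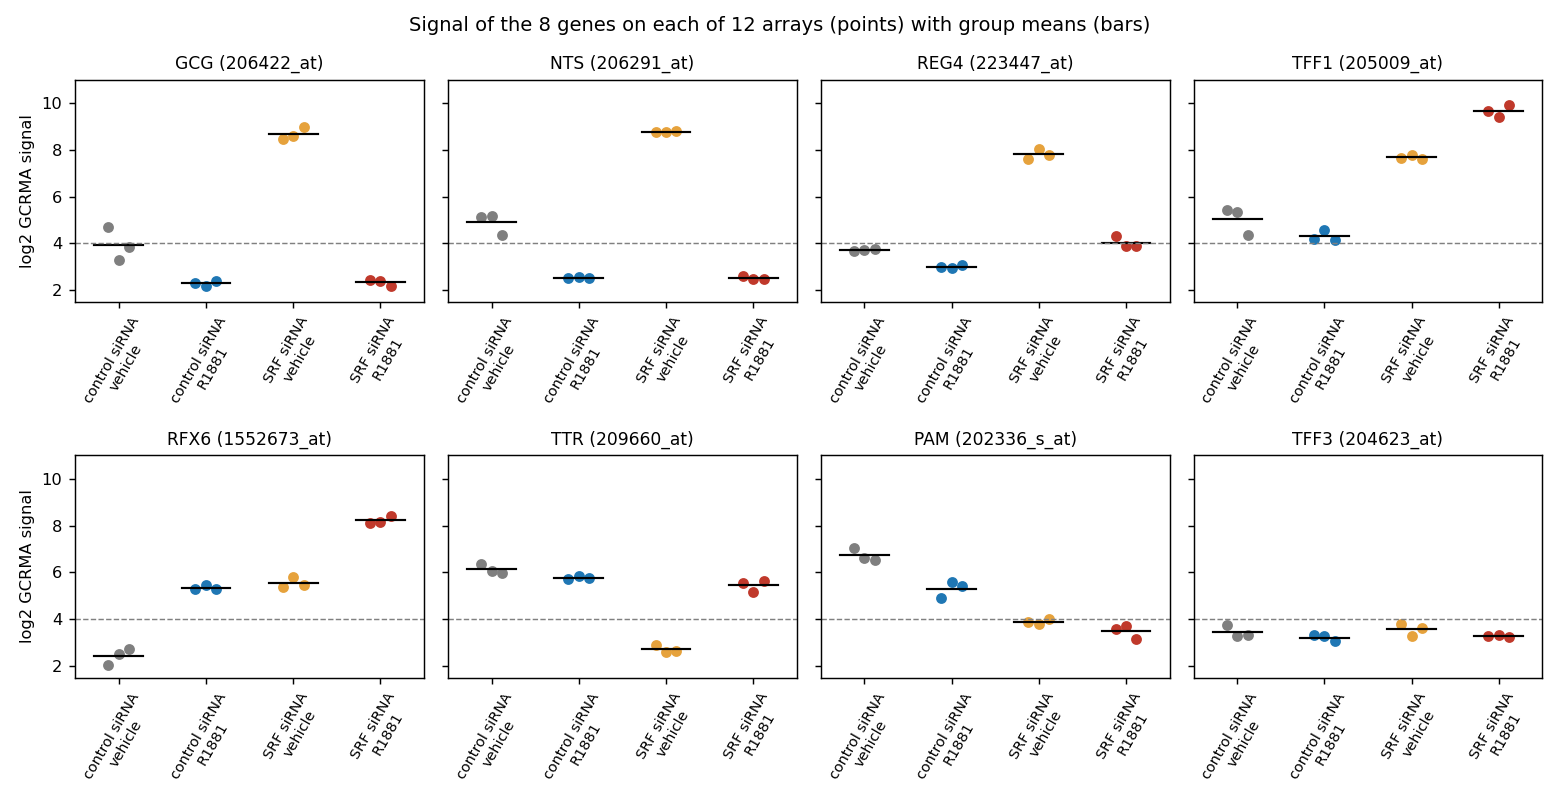
Log2 GCRMA signal of each of the 8 genes (y axis) in the 4 groups (x axis). Points are single arrays, short horizontal bars are means of 3 arrays and the dashed line is log2 4. GCG, NTS and REG4 stand out in silenced vehicle, TFF1 and RFX6 are highest in silenced R1881, TTR is low only in silenced vehicle, and TFF3 stays under the line.

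**Figure D2:**
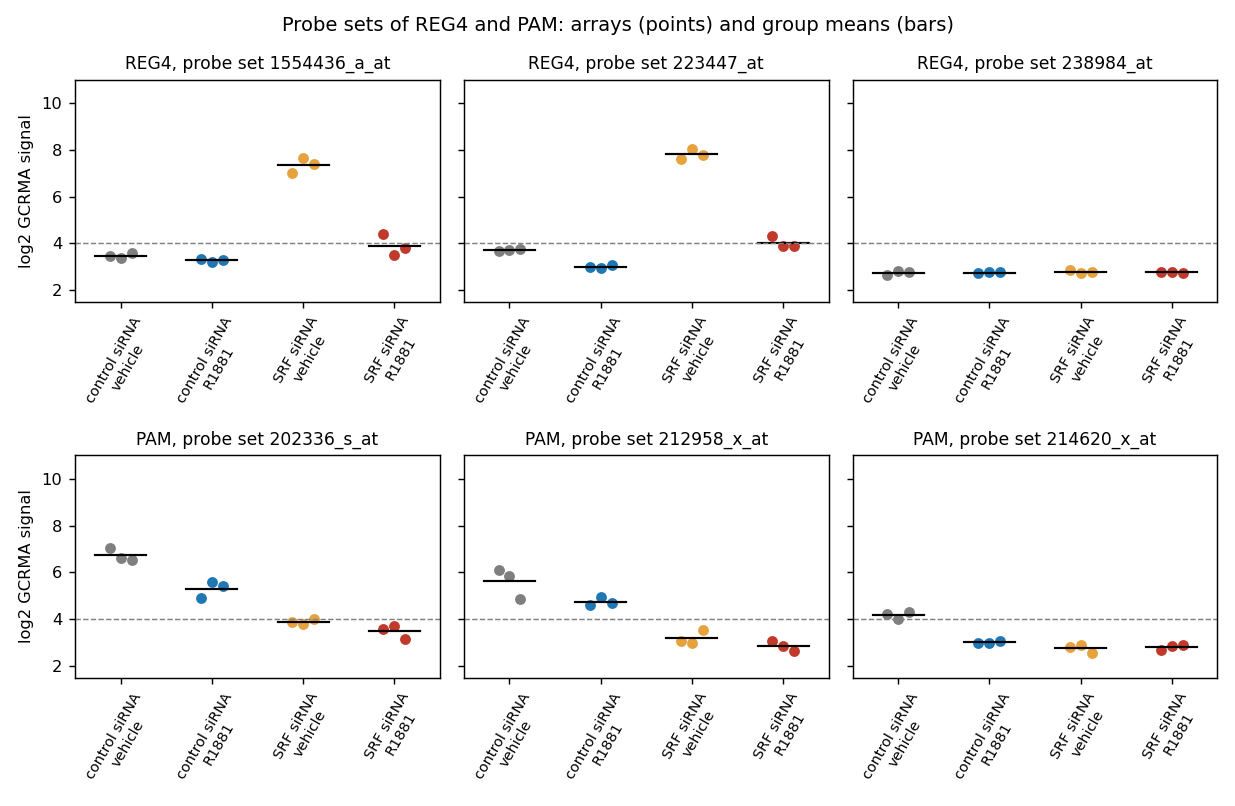
Log2 GCRMA signal (y axis) of the 3 REG4 and 3 PAM probe sets in the 4 groups (x axis). Points are single arrays, short horizontal bars are means of 3 arrays and the dashed line is log2 4. REG4 probe sets 1554436_a_at and 223447_at show the peak in silenced vehicle while 238984_at stays under 2.85, and the PAM probe sets share their highest mean in control vehicle.

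The 5 comparisons were also read across the 7 genes tested, beside the share of all genes that passed at an adjusted p under 0.05. For SRF siRNA in vehicle 5 were higher (GCG, NTS, REG4, RFX6 and TFF1) and 2 lower (TTR and PAM), where 55.7% of all genes were called in either direction. For SRF siRNA in R1881 3 were higher (REG4, RFX6 and TFF1), 1 was lower (PAM) and 3 were not called, against 59.0% of all genes called. For R1881 in control cells 1 was higher (RFX6) and 6 lower, against 60.6% of all genes. The calls of TTR and TFF1 there were lost when single arrays were left out, among them the first control vehicle array, without which TTR stood at -0.25. With values under 4 set to 4, those of GCG and REG4 there were lost as well. The same floor removed the call of REG4 for SRF siRNA in R1881. For R1881 in silenced cells 3 were higher (RFX6, TTR and TFF1), 3 lower (GCG, NTS and REG4) and 1 was not called, against 53.1%. The difference of R1881 effects was above 0 for 3 (TTR, TFF1 and PAM), below 0 for 3 (GCG, NTS and REG4) and not called for RFX6, against 23.8%. With values under 4 set to 4 it was called above 0 for RFX6, at 1.35. These shares split into 30.7% higher and 25.0% lower for SRF siRNA in vehicle, 33.6% and 25.4% in R1881, 26.9% and 33.8% for R1881 in control cells, 25.5% and 27.7% in silenced cells, and 13.2% and 10.5% for the difference of effects. The groups did not overlap for 7 of the 7 genes for SRF siRNA in vehicle (61.2% of all genes), 5 in R1881 (66.6%), 6 for R1881 in control cells (67.5%) and 7 in silenced cells (59.2%). These genes were chosen on the same values, so nothing is read from the counts. The comparisons that share a group also share its arrays.

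The median absolute difference over the 10265 genes was 0.31 for silencing in vehicle, 0.34 for silencing in R1881, 0.36 for R1881 in control cells and 0.29 for R1881 in silenced cells. Sizes of the 7 genes against these medians follow from how they were chosen. In vehicle the siRNA difference was 2.63 or more in size for all 7, the smallest being TFF1. In R1881 it spanned 5.34 for TFF1 to -1.82 for PAM, and TTR at -0.32, GCG at 0.04 and NTS at -0.02 were smaller in size than the median of all genes. For R1881 in control cells TTR, at -0.36, was at the median.

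**Figure D3:**
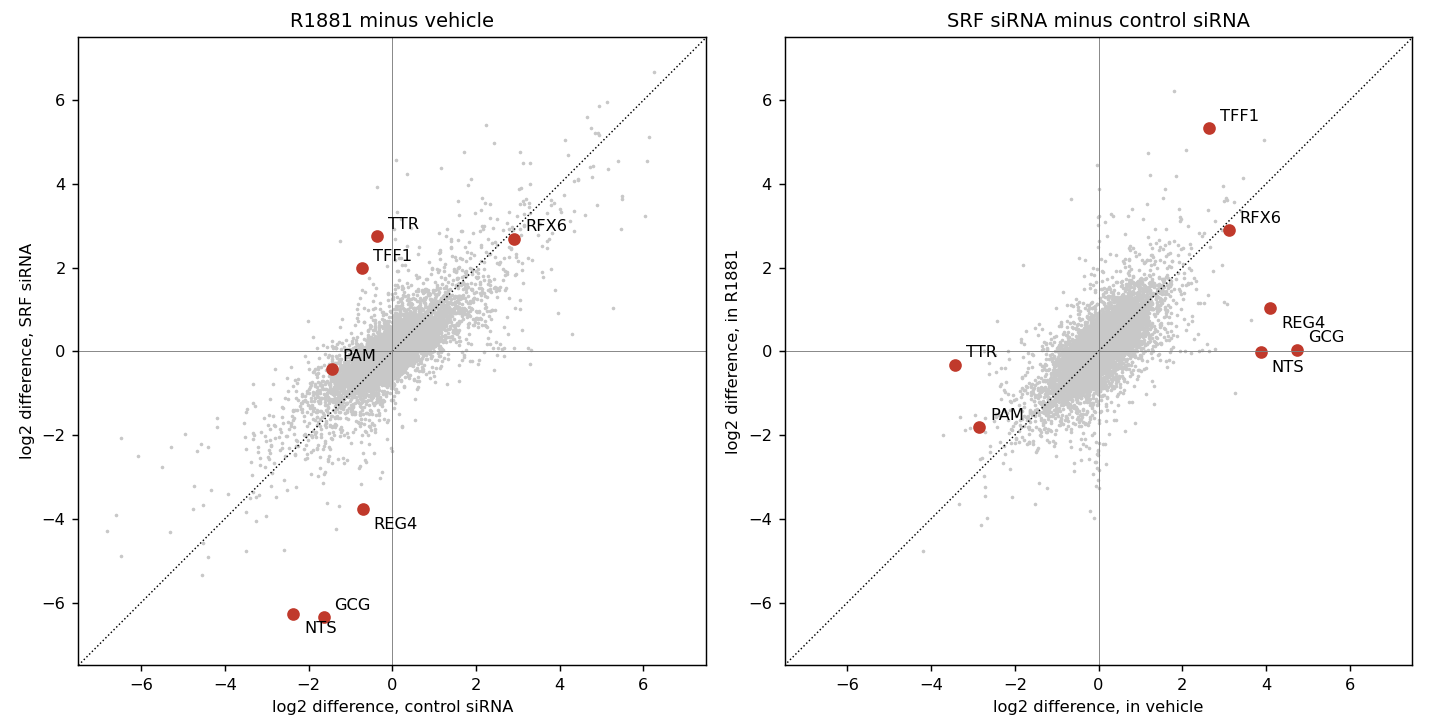
Each point is 1 of the 10265 genes tested, with 7 of the 8 genes named in red. The left panel plots the log2 R1881 minus vehicle difference in silenced cells (y) against control cells (x), and the right panel the log2 SRF siRNA minus control siRNA difference in R1881 (y) against vehicle (x). The dotted line marks equal differences, and the axes of a panel share no array. RFX6 lies near the line in both panels, GCG and NTS lie at 0 on the y axis of the right panel, and TTR and TFF1 change sign in the left panel.

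Likeness between genes was measured as the root mean square difference of their log2 signals over the 12 arrays, after each gene's own mean was subtracted. GCG and NTS were the closest pair among the 7 genes, at 0.49, then GCG and REG4 at 1.03, NTS and REG4 at 1.13, TTR and PAM at 1.23 and RFX6 and TFF1 at 1.45. The measure is not scaled to each gene's own SD over the 12 arrays. That SD was 2.74 for GCG and 2.68 for NTS, but 1.42 for TTR and 1.36 for PAM, little more than their difference. For RFX6 and TFF1 it was 2.16 and 2.24. The most unlike pair was GCG and TTR at 3.90. Outside the 7, the gene nearest to GCG and to REG4 was CCDC83, at 0.85 and 0.45, and the nearest to NTS was ACTRT3 at 0.74. ACTRT3 and CNBD1 followed for GCG at 1.03 and 1.11, CCDC83 and MYNN for NTS at 0.86 and 1.01, and ZBTB43 and NMU, the gene of the gut peptide neuromedin U, for REG4 at 0.64 and 0.65. S100P was nearest to RFX6 at 0.27, followed by the growth factor gene IGF1 and SYNGR3 at 0.59 and 0.67. S100P read 7.03 in control vehicle, 9.77 in control R1881, 9.81 in silenced vehicle and 12.9 in silenced R1881. GPR158, TYRP1 and APOD were nearest to TTR at 0.33 to 0.48, and LGALS8, ADD3 and BDH2 to PAM at 0.28 to 0.36. For TFF1 the nearest were the metallothionein genes MT1F and MT1G, at 0.55 and 0.90, and the adrenergic receptor gene ADRA2A at 0.75. The arrays of a group share their treatment, so these values rest on 4 conditions.

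To place the 8 genes in their pathways, 107 related genes in 6 lists were examined. A probe set named 96 of them, and 19 were tested. The other 77 did not pass the filter on low signal, and 75 of these lay under 4 on every array. Among all 19, 12 passed for SRF siRNA in vehicle (9 higher and 3 lower; 63.2%, where 55.7% of all genes passed) and 12 in R1881 (9 higher and 3 lower; 63.2% against 59.0%). For R1881, 11 passed in control cells (4 higher and 7 lower; 57.9% against 60.6%) and 14 in silenced cells (7 and 7; 73.7% against 53.1%). The difference of R1881 effects passed for 7 (2 above 0 and 5 below; 36.8% against 23.8%). The medians of the 19 were 0.23, 0.28, -0.07, 0.01 and 0.02 in that order, beside 0.04, 0.06, -0.05, -0.03 and 0.03 over all genes.

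Of 21 other gut and pancreatic peptide hormone genes 19 had a probe set, and only GAL and NMU were tested. The remaining 17, among them SST, CCK, PYY, VIP and INS, lay under 4 on every array except for CARTPT. GAL, which encodes the neuropeptide galanin, rose with silencing in both treatments, by 1.35 ± 0.27 (SE) in vehicle and 2.92 ± 0.27 in R1881 (limma adjusted p = 0.000979 and 1.81e-06). R1881 lowered it in control cells, from 5.95 ± 0.18 to 3.97 ± 0.74 (SD, n = 3 each; adjusted p = 4e-05). The R1881 effect was -0.42 in silenced cells and differed from that in control cells by 1.57 ± 0.38 (adjusted p = 0.010). NMU went from 3.94 ± 0.18 to 6.46 ± 0.18 with silencing in vehicle (adjusted p = 6.00e-07) and R1881 brought it back to 3.91 ± 0.12 (adjusted p = 3.74e-07). It was thus highest in silenced vehicle, the group where GCG, NTS and REG4 were highest. Its difference of R1881 effects was -1.37 ± 0.27 (adjusted p = 0.00343). The calls of NMU for R1881 in control cells and for silencing in R1881 were lost with values under 4 set to 4.

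Genes that turn a precursor into a hormone came next. Of 19 processing and granule genes 17 had a probe set and 7 were tested. The convertase genes PCSK1 and PCSK2 had no probe set assigned to them alone in the platform table and were not examined. The granule genes CHGA, CHGB, SCG2, SCG3 and SCG5 lay under 4 on every array. Silencing in vehicle raised 2 of the 7 and lowered 2 (57.1% against 55.7% of all genes), a share near that of genes at large. CPE, the carboxypeptidase that trims the cut ends of prohormones, went from 9.79 ± 0.10 to 9.17 ± 0.04 with silencing in vehicle but from 9.30 ± 0.06 to 10.0 ± 0.08 in R1881 (SD, n = 3 each; adjusted p = 2.12e-05 and 5.51e-06). Its R1881 effect was -0.50 ± 0.07 (SE) in control and 0.83 ± 0.07 in silenced cells, a difference of 1.33 ± 0.10 (adjusted p = 4.42e-06). The proprotein convertase gene PCSK7 rose with silencing by 0.82 ± 0.11 and 0.91 ± 0.11 and with R1881 by 0.41 ± 0.11 in control cells (adjusted p = 5.01e-05, 1.63e-05 and 0.00620). In silenced cells the R1881 rise of PCSK7 was 0.50 ± 0.11 (adjusted p = 0.00198). PCSK1N, the gene of a convertase inhibitor, rose with silencing in vehicle by 0.46 ± 0.10 (adjusted p = 0.00173) and fell with R1881 in silenced cells by 0.58 ± 0.10 (adjusted p = 0.000351). The granule membrane gene PTPRN2 rose with R1881 in control cells by 1.27 ± 0.22 (adjusted p = 0.000349). This rise started under 4, from a mean of 3.25 in control vehicle to 4.52 ± 0.54 (SD) in control R1881. Its 0.60 ± 0.22 in silenced cells (adjusted p = 0.0405) was lost when single arrays were left out, among them each silenced vehicle array, and came to 0.04 with values under 4 set to 4 (adjusted p = 0.858). CPD, a second carboxypeptidase gene, fell by 0.39 ± 0.12 with silencing in R1881 (adjusted p = 0.0119). Without the third control R1881 array or the first silenced R1881 array the adjusted p of CPD in R1881 was 0.0515.

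Most of the receptor and partner genes examined were under 4. Of 10 such genes 9 had a probe set, and SORT1 had none assigned to it alone in the platform table and was not examined. GCGR, GLP2R, GIPR, NTSR1 and NTSR2 lay under 4 on every array, while GLP1R was above 4 on some. The 1 tested, EXTL3, which encodes a receptor of regenerating proteins, ran from 4.69 to 5.11 in its group means and passed no test (adjusted p = 0.576 to 0.931). None of the 10 plasma carrier and liver secretory genes, among them ALB, SERPINA7 and APOA1, was tested. Their highest signal on any array was 3.29.

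Of 18 regenerating, trefoil and mucosal genes only AGR2, SPDEF and MUC5AC were tested, and REG1A, REG1B, REG3A, REG3G and TFF2 lay under 4 on every array. AGR2, which encodes a protein disulphide isomerase of mucus-secreting cells, rose with R1881 from 7.10 ± 0.10 to 11.9 ± 0.09 in control cells and from 7.79 ± 0.20 to 12.2 ± 0.06 in silenced cells (SD, n = 3 each; adjusted p = 5.54e-12 and 1.28e-11). Silencing raised it by 0.69 ± 0.10 and 0.34 ± 0.10 (SE; adjusted p = 8.93e-05 and 0.0106). SPDEF, the gene of an ETS factor of goblet and prostate cells, rose with R1881 by 2.64 ± 0.08 and 1.71 ± 0.08 and fell with silencing by 0.49 ± 0.08 in vehicle and 1.42 ± 0.08 in R1881 (adjusted p = 6.84e-11, 3.09e-09, 0.000179 and 2.91e-08). Its R1881 effect was different between the siRNAs by -0.93 ± 0.11 (adjusted p = 8.86e-05). MUC5AC passed none of these tests (adjusted p = 0.0641 to 0.829).

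Of 29 endocrine and gut transcription factor genes 23 had a probe set and 6 were tested. The other 17 lay under 4 on every array, among them NEUROG3, PAX6, NKX2-2, ISL1, PDX1, INSM1, CDX2 and FOXA2, which act with or beside RFX6 in islet or gut cells. In vehicle, silencing raised 4 of the 6 and lowered none (66.7% against 55.7%): SOX9 by 1.56 ± 0.14 (SE), MNX1 by 1.30 ± 0.11, SOX4 by 0.96 ± 0.07 and FOXA1 by 0.44 ± 0.07 (adjusted p = 2.73e-06, 1.32e-06, 2.69e-07 and 0.000137). In R1881 it raised 3 and lowered none (50% against 59.0%): SOX9 by 1.72 ± 0.14, SOX4 by 0.53 ± 0.07 and GATA6 by 0.39 ± 0.08 (adjusted p = 9.14e-07, 2.52e-05 and 0.00157). R1881 lowered 5 of the 6 in silenced cells and raised 1, beside 27.7% of all genes lower and 25.5% higher, and 3 of these 6 calls (SOX9, RFX3 and GATA6) were lost when single arrays were left out. SOX9 was the one that rose, by 0.45 ± 0.14 (adjusted p = 0.0193), and its call was lost without the second silenced vehicle array (adjusted p = 0.0769) and without the third silenced R1881 array (adjusted p = 0.0594). SOX4 fell by 1.39 ± 0.07, MNX1 by 1.17 ± 0.11 and RFX3, a relative of RFX6, by 1.04 ± 0.30 (adjusted p = 5.21e-09, 2.55e-06 and 0.0120). RFX3 stood at -0.72 without the third silenced vehicle array (adjusted p = 0.0521). GATA6, at -0.25 ± 0.08 (adjusted p = 0.0230), was not called without the third silenced vehicle array (adjusted p = 0.0803) nor without the first or the second silenced R1881 array (adjusted p = 0.0712 and 0.0789). In control cells R1881 lowered 3 and raised none (50% called against 60.6% of all genes), with RFX3 at -1.22 ± 0.30, SOX4 at -0.95 ± 0.07 and GATA6 at -0.49 ± 0.08 (adjusted p = 0.00388, 1.17e-07 and 0.000258). Both R1881 means of RFX3 lay under 4, at 3.64 in control and 3.62 in silenced cells. MNX1, a factor of islet development, was the one that most differed between the siRNAs in its R1881 effect, at -1.17 ± 0.16 (adjusted p = 0.000230). Its means were 7.12 in both control groups, 8.42 in silenced vehicle and 7.25 in silenced R1881.

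**Figure D4:**
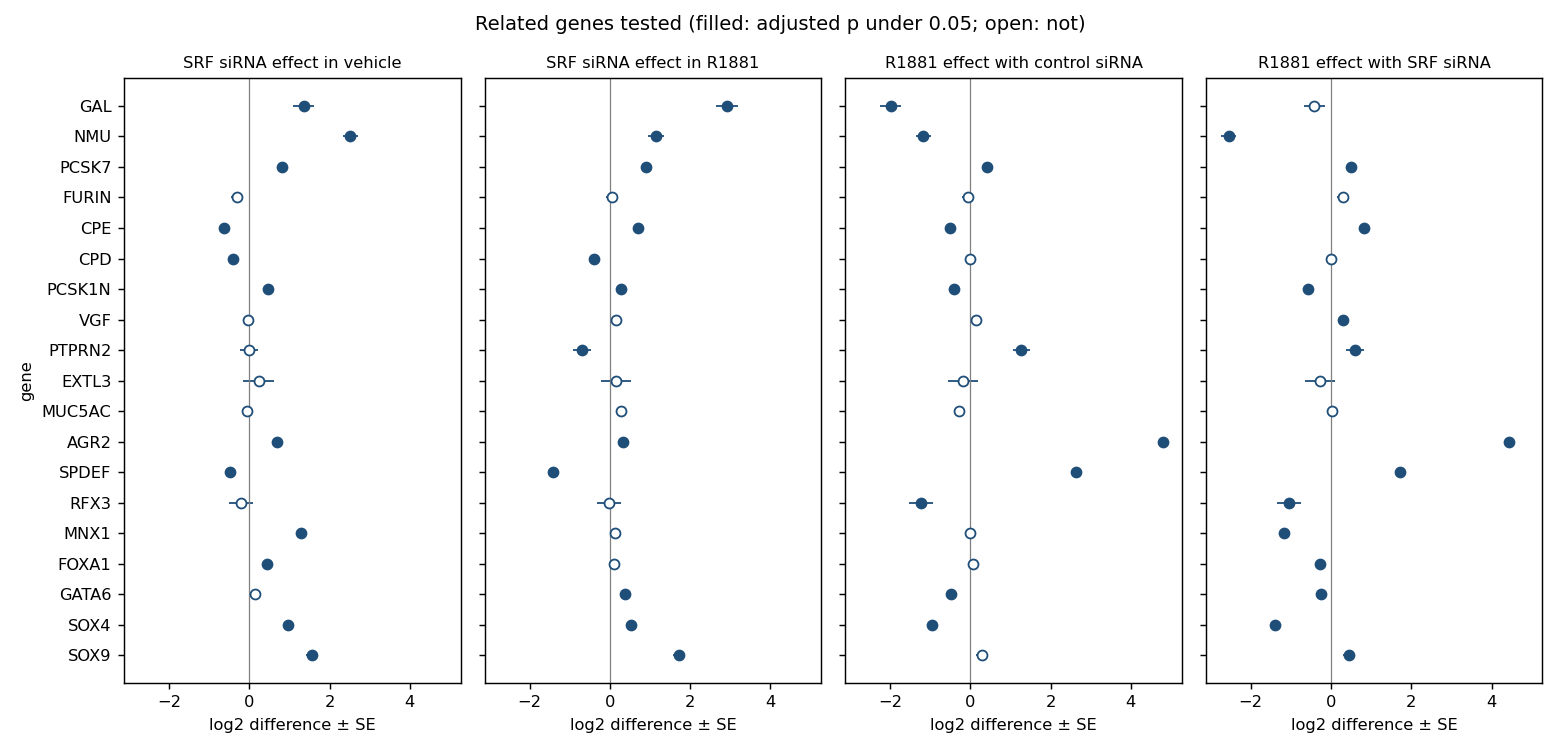
Log2 difference with its SE (x axis) for the 19 related genes tested (y axis) in 4 comparisons, from a fit over all 10265 genes. Filled points had an adjusted p under 0.05 and open points did not. GAL and NMU are higher after SRF silencing in both treatments, AGR2 and SPDEF are higher with R1881 under both siRNAs, and CPE changes sign between panels.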

How the data were processed

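Messenger RNA was measured on 12 arrays, from 3.5 µg of total RNA each. The deposited values are log2 signals per probe set, made by the authors with GCRMA per the submitters' processing notes; its version is not given in the sources used here. GCRMA estimates a background, so a fold against a level near 2 to 3 depends on that estimate. Of 54675 probe sets 41091 had 1 symbol in the platform table. A probe set was kept above log2 4 on at least 3 arrays (21526, of them 9 of the 12 described), and the one with the highest mean stood for a gene. Array medians ran from 2.97 to 3.06, and arrays of a group correlated at 0.996 to 0.998. The number of arrays limits the precision.

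One model with a mean per group was fitted to all 12 arrays (limma 3.58.1, R 4.3.3). Adjusted p-values are from limma's moderated test with Benjamini-Hochberg adjustment over 10265 genes, and genes were called under 0.05. SE is the moderated standard error, and that of further probe sets comes from a fit of all kept probe sets. The fit was tested on simulated data. The members and lists were chosen with earlier results of these data known. Related genes were named by a rule: up to 3 called genes per list and contrast with the largest change whose groups did not overlap (overlap was not asked of the difference of effects), and 3 alike genes per member whose group means spanned at least 1. FOXA1 in vehicle, some comparisons of PCSK7, PCSK1N and CPD, the untested genes, EXTL3, MUC5AC and single marker genes are named outside it. Alternatives changed the filter, a floor at 4, the probe set, the normalization, the variance model, the arrays, a replicate block and the threshold, and left out each array. Leaving out the third array of both silenced groups, whose 3-prime minus 5-prime GAPDH and ACTB differences were the largest of their groups, was added after seeing the data. Matplotlib 3.10.9 and Python 3.11.15 made the figures.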

Additional observations from a re-analysis of the deposited data

Results flagged for a closer look

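Among the genes described here, the related genes tested, SRF and KLK3, the response to R1881 differed between the 2 siRNAs for 14. Genes named only for their likeness to a described gene were not looked up and are not in this count. Over all 10265 genes tested, 23.8% passed for this difference. Some related genes were named because they passed it, so the count of 14 is not set against that share. For the genes described here the values are given as a description, since they were chosen with them known: -4.70 ± 0.38 (SE) for GCG, -3.90 ± 0.23 for NTS, -3.07 ± 0.18 for REG4, 3.11 ± 0.19 for TTR, 2.71 ± 0.35 for TFF1 and 1.03 ± 0.27 for PAM. For PAM the second kept probe set gave 0.52 ± 0.39. For TTR and TFF1 the effects had opposite signs, -0.36 and 2.75 for TTR and -0.72 and 1.98 for TFF1 with control and SRF siRNA.

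Among related genes, limma's test of the difference passed for GAL at 1.57 ± 0.38 (adjusted p = 0.010), NMU at -1.37 ± 0.27 (adjusted p = 0.00343), CPE at 1.33 ± 0.10 (adjusted p = 4.42e-06), MNX1 at -1.17 ± 0.16 (adjusted p = 0.000230) and SPDEF at -0.93 ± 0.11 (adjusted p = 8.86e-05). It also passed for SOX4 at -0.43 ± 0.09 (adjusted p = 0.00540), FOXA1 at -0.34 ± 0.09 (adjusted p = 0.0212) and KLK3 at 0.27 ± 0.09 (adjusted p = 0.0372). Without the third control R1881 array FOXA1 stood at -0.32 (adjusted p = 0.0534).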

How the results depend on the processing

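The counts of related genes called stayed within 1.5 times under all alternatives run but 1. The number tested went from 19 to 34 at a cut-off of log2 3 and to 96 with no filter. For R1881 in silenced cells 13 of 34 and 12 of 96 then passed, beside 5463 of 12313 and 5118 of 19775 of all genes. For silencing in vehicle these were 12 of 34 and 14 of 96, beside 5788 of 12313 and 5400 of 19775. These related shares lay below those of all genes, unlike in the main fit. With a 2-fold change also required, R1881 gave 6 of 19 in control cells and 6 in silenced cells. The difference of effects gave 4, and silencing gave 4 in vehicle and 4 in R1881. In the same order 1452, 1095, 514, 953 and 1192 of all 10265 genes passed. Leaving out 1 array gave related counts of 10 to 12, 11 to 15, 6 to 8, 12 to 12 and 10 to 12. A floor at log2 4 moved 17 of the 35 differences of the 7 genes by more than the spread of their arrays, averaging probe sets moved 3, leaving out 1 array moved 1 (NTS, difference of effects, -3.64 without the third control vehicle array), and leaving out the third array of both silenced groups moved 2. No called difference turned its sign. The difference of effects of RFX6, not called at -0.23, went to 1.35 with the floor and was then called. Same-numbered arrays did not deviate together: their 18 correlations ran from -0.21 to 0.10, none over 0.1, and in 14 of 36 comparisons the best match had the same number. With the replicate block the related counts were 11, 14, 7, 12 and 12, as without it, and the genes called overall went from 6225 to 6148, 5453 to 5316, 2441 to 2200, 5717 to 5585 and 6058 to 5921. Signal over background limits the differences of GCG, NTS, REG4, RFX6, TTR and PAM, each with at least 1 group mean under 4, and those of TFF3, with all 4.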
